A study of Mus musculus with 24 samples.

Results

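Interleukin (IL)-12 family genes were followed as 9 members, found as the entries of the deposited gene table whose symbols are Il12a, Il12b, Il23a, Il27, Ebi3, Il12rb1, Il12rb2, Il27ra and Il6st. All 9 were present once each among the 54532 genes of the table. The series holds 24 polyA RNA-seq libraries in 8 groups of 3, from mouse macrophages (BMDMs) and dendritic cells (BMDCs) that were both grown from bone marrow. All mice carried floxed Tmem173, the gene of the DNA-signalling adaptor STING, and had received tamoxifen. Libraries labelled WT came from Tmem173 fl/fl mice, and libraries labelled CRE from Tmem173 fl/fl mice that also carried the Creert2 recombinase under the lysozyme promoter, which drives recombination in myeloid cells. Cells of each genotype were left as controls (CT) or stimulated with DMXAA (DX), a small-molecule agonist of mouse STING, at 40 µM by the series' design text. The study's methods give this dose in another unit, so the concentration is uncertain. The methods give the mice as several weeks old at tamoxifen injection, in 1 of 2 age ranges, and do not say which range gave these libraries. Whether the 3 libraries of a group came from separate mice is not stated. P-values therefore measure the spread between these libraries, which may be technical.

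The IL-12 family consists of secreted heterodimers, each joining a four-helix alpha chain to a beta chain that resembles a soluble cytokine receptor. Il12a (p35) and Il12b (p40) form IL-12, Il23a (p19) and Il12b form IL-23, Il27 (p28) and Ebi3 form IL-27, and Il12a and Ebi3 form IL-35. IL-12 from activated dendritic cells and macrophages drives T helper 1 responses, IL-23 sustains T helper 17 cells, and IL-27 has both activating and restraining effects on T cells. On the receiving side, Il12rb1 encodes the receptor chain shared by IL-12 and IL-23, Il12rb2 the second IL-12 receptor chain, Il27ra the IL-27-specific chain, and Il6st the shared signal transducer gp130. The comparisons ask whether STING activation raises these transcripts in each cell type and whether the response differs between the genotype labels.

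The 9 genes lie at separate places on GRCm38, and the table's intervals were the same as those of the GENCODE M21 annotation. Il12a (ENSMUSG00000027776) spans chr3:68690644-68698547 on the plus strand, Il12b (ENSMUSG00000004296) chr11:44400063-44414033 on the plus strand and Il23a (ENSMUSG00000025383) chr10:128296139-128298752 on the minus strand. Il27 (ENSMUSG00000044701) spans chr7:126589010-126594941 on the minus strand and Ebi3 (ENSMUSG00000003206) chr17:55952640-55957022 on the plus strand. The receptor chains are Il12rb1 (ENSMUSG00000000791, chr8:70808449-70821424, plus), Il12rb2 (ENSMUSG00000018341, chr6:67291318-67376188, minus), Il27ra (ENSMUSG00000005465, chr8:84030294-84042589, minus) and Il6st (ENSMUSG00000021756, chr13:112464070-112510086, plus). Whether reads were counted by strand is not stated, and 4 members overlap an exon of a gene on the opposite strand. Il12rb2 shares 1519 of its 3794 exonic bases with Serbp1, so its values are uncertain. Ebi3 shares 270 of 1154 with Gm16712, Il27 shares 103 of 1021 with Apobr, and Il27ra shares 2 of 3495 with Palm3.

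Upstream sequences are shown for Il12a, Il12b and Ebi3, the 3 subunit genes with an entry in the promoter table, to set Il12a and Il12b, which were far higher in BMDCs than in BMDMs, beside Ebi3, found in both cell types even in controls. Each is the 250 bases before a RefSeq start site on GRCm38.p6, plus strand, 5′ to 3′, at chr3:68690394-68690643 for Il12a, chr11:44399813-44400062 for Il12b and chr17:55952373-55952622 for Ebi3. Capitals mark matches, on either strand, to the 6 motifs that were searched.
Il12a: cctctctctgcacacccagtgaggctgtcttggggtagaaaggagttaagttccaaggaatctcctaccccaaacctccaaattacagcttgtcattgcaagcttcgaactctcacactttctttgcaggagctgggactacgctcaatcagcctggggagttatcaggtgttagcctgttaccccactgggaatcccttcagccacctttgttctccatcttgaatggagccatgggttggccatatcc
Il12b: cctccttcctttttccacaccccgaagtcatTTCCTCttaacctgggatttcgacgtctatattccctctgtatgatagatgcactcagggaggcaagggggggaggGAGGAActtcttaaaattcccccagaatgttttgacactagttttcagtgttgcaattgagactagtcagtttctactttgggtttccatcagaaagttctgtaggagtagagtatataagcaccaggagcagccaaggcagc
Ebi3: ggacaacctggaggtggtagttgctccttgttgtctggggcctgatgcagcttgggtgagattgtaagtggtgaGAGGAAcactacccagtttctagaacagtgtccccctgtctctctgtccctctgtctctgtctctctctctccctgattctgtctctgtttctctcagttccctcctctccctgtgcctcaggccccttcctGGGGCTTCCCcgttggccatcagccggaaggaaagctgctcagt
The motifs were the PU.1 core GAGGAA, the AP-1 motif TGANTCA, the C/EBP motif TTNNGNAA, the TATA box TATAAA, the κB consensus and the core of the interferon-stimulated response element, which is GAAA, any 2 bases and GAAA again. The Il12b window holds GAGGAA at positions -219 (reverse strand) and -143 relative to the start site, and 23.3% of all 32851 windows of this length in the promoter table hold that motif at least once. Ebi3 holds GAGGAA at -176 and a κB consensus match at -44, the latter present in 3.90% of windows. No match to the 6 motifs lay in the Il12a window shown, nor in the one before its second RefSeq start site at position 68691424. The shares for the other 4 motifs were 2.98% for the interferon-stimulated response element core, 6.75% for AP-1, 36.8% for C/EBP and 12.4% for the TATA box. These matches are letters in a window and were not tested for binding.

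Expression was deposited as read counts and as FPKM (fragments per kilobase of exon, scaled to library size), and levels below are FPKM, the only scale of the table that allows levels of different genes to be set side by side. Gene counts summed to between 15657347 and 18912887 per library. The authors' FPKM divide by a scaled library size, which was 0.687 to 0.893 of the total count in DMXAA libraries and 1.03 to 1.16 of it in controls, leaving aside the BMDM libraries numbered 3, which lay at 1.26 to 1.33 under either treatment. Outside those 4, FPKM therefore rises more with DMXAA than CPM (counts scaled to the library total) does. Changes were tested on the counts with edgeR's quasi-likelihood test and its TMM scaling, with Benjamini-Hochberg adjustment over all genes tested. A change was called at an adjusted p under 0.05. With library totals in place of TMM, the median log2 change of all genes with DMXAA in WT-labelled libraries moved from 0.01 to -0.36 in BMDCs and from -0.08 to -0.59 in BMDMs, and the changes below are relative to the bulk of genes. On totals, calls that were higher made up 26.4% in WT-labelled BMDCs, against 52.7% with TMM, and 20.4% in WT-labelled BMDMs, against 47.1%.

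The BMDM libraries numbered 3 stood apart from the other 8. Their 7 pan-leukocyte markers summed to between 0.697 and 1.32 FPKM, against 2389 to 3270 in the other BMDM libraries, and 8 fibroblast markers summed to between 1151 and 1882, against 3.69 to 58.6. They also lacked the macrophage label's markers, with 2 of 8 reaching 1 FPKM and a summed level of 19.6 to 33.1. These 4 libraries were therefore set aside from the BMDM tests and are given apart. In the other 8, all 8 macrophage markers reached 1 FPKM, and in the 12 BMDC libraries all 8 dendritic cell and all 8 macrophage markers did. Those 8 BMDM libraries differed by label, with macrophage sums of 10007 to 13090 (WT) and 5913 to 7535 (CRE). The medians of that list lay closer together. In controls they were 279 and 268 FPKM (WT) and 247 and 246 (CRE), and with DMXAA 448 and 410 (WT) and 349 and 339 (CRE). Dendritic cell sums in the same libraries were 77.6 to 121 (WT) and 183 to 188 (CRE). Fibroblast sums were 47.2 and 58.6 in the WT-labelled libraries numbered 2 and 3.69 to 6.55 in the rest. What part these differences have in the label comparisons was not tested. Tmem173 transcript, which the deletion need not remove, was 9.12 to 10.1 FPKM in CRE-labelled and 22.8 to 31.8 in WT-labelled DMXAA BMDMs. In control BMDMs the labels overlapped, at 8.76 to 10.4 and 9.91 to 14.7. They also overlapped in BMDCs under DMXAA, at 24.3 to 35.1 and 34.6 to 55.3, so the transcript does not check the labels.

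In BMDCs, DMXAA raised the transcripts of all 5 cytokine subunits in WT-labelled cells. Il12b, Il27 and Ebi3 ended at group means of 85.0, 86.7 and 76.2 FPKM, whereas Il23a and Il12a ended at 4.56 and 1.21. The receptor chains Il12rb1 and Il12rb2 also rose, and those of Il27ra and Il6st did not pass the test. Thus 7 of 9 members were called higher and none lower, where 17.0% of the 12126 genes tested were called higher. The median log2 fold change was 3.18 over the members and 0.01 over all genes tested. Il12a, Il12b, Il23a, Il27 and Il12rb1 met the filter of 1 FPKM in 3 libraries only with the help of DMXAA libraries, so the members' count and median partly follow from the filter.

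**Figure D1:**
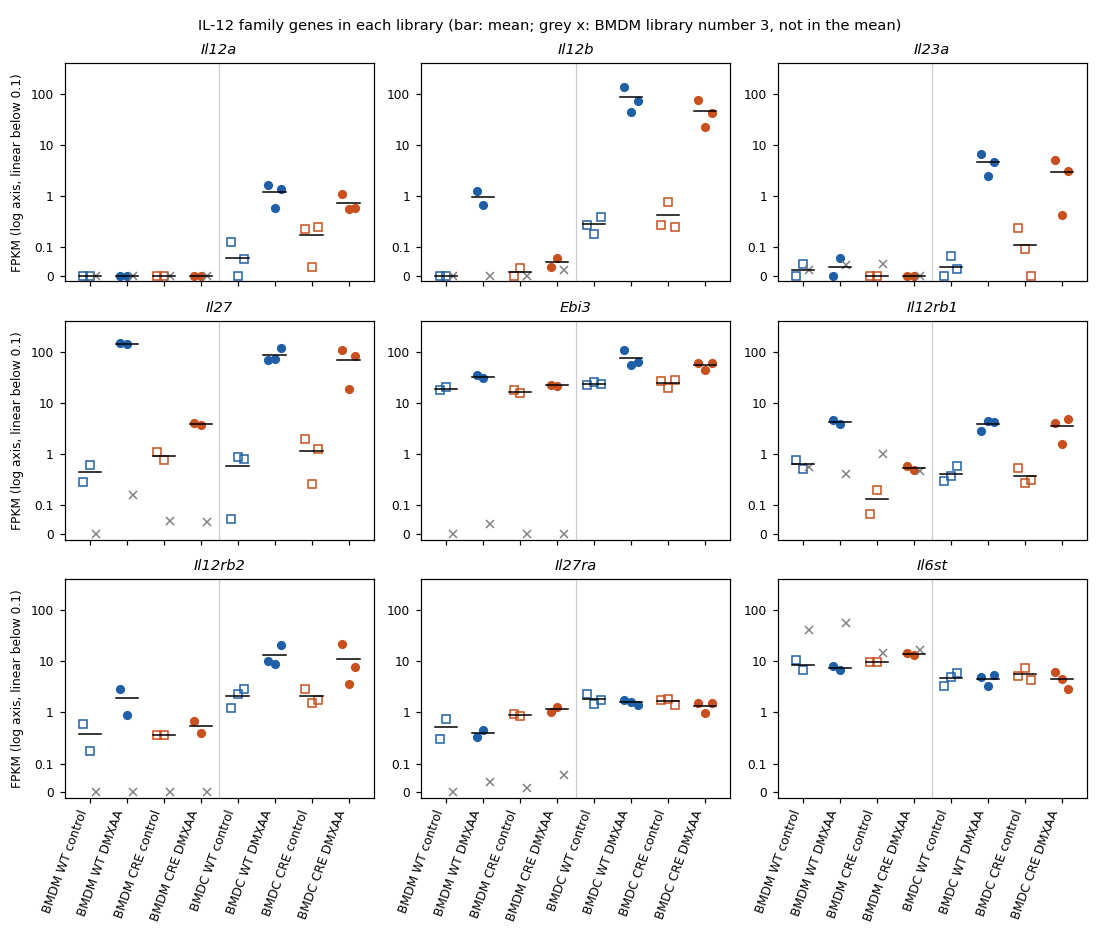
FPKM of the 9 IL-12 family genes in all 24 libraries on a log axis that is linear below 0.1, with open squares for control, filled circles for DMXAA, blue for the WT label, orange for the CRE label, bars for group means and grey crosses for the BMDM libraries numbered 3, which are not in the means. Il12a sits at 0 in every BMDM library, while Il27 reaches 150 and 141 FPKM in WT-labelled BMDMs under DMXAA against 4.18 and 3.76 in CRE-labelled ones.

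Il12b, the p40 chain common to IL-12 and IL-23, was at 0.274, 0.181 and 0.388 FPKM in the 3 WT-labelled control BMDC libraries and at 138, 44.8 and 72.3 with DMXAA. All 3 DMXAA libraries lay far above all 3 controls. In libraries labelled CRE it was 0.274, 0.781 and 0.245 in controls and 74.8, 22.9 and 43.0 with DMXAA, again without overlap. The log2 fold change was 8.18 ± 0.70 (SE, edgeR adjusted p = 9.95e-06) for the WT label and 6.73 ± 0.66 (adjusted p = 2.87e-05) for the CRE label, the largest of the 9 members in each. Under the CRE label, 6 members were called higher, where 14.0% of genes were, and none lower. The members' median log2 fold change there was 2.39, against -0.01 over all genes tested.

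The p19 chain of IL-23, Il23a, started from 0, 0.0680 and 0.0227 FPKM in WT-labelled control BMDCs and reached 6.62, 2.45 and 4.60 with DMXAA. Under the CRE label the controls were 0.239, 0.0943 and 0 and the DMXAA libraries 5.13, 0.429 and 3.14, so the lowest treated library, number 2, stood less than 0.2 FPKM above the highest control. The log2 fold change was 7.04 ± 1.20 (edgeR adjusted p = 0.0011) for the WT label and 4.61 ± 1.02 (adjusted p = 0.00644) for the CRE label. These folds start from 4 and 15 counts over 3 control libraries, and the ratio of summed CPM was 112 (95% exact interval 43.6 to 414) and 19.1 (11.4 to 34.6), intervals that cover counting error only.

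Il12a, the p35 chain of IL-12 and IL-35, had the lowest group mean of the subunits under DMXAA. Its WT-labelled control BMDCs were at 0.127, 0 and 0.0599 FPKM and its DMXAA libraries at 1.68, 0.579 and 1.36, without overlap. Under the CRE label the controls were 0.230, 0.0311 and 0.252 and the treated libraries 1.10, 0.567 and 0.581, also without overlap. The log2 fold change was 4.18 ± 0.86 (edgeR adjusted p = 0.0034) with the WT label. For the CRE label it was 2.07 ± 0.77 and missed the threshold (adjusted p = 0.0699). The same-numbered control and DMXAA BMDC libraries of a label varied together, and a fit with a replicate block within each label called this change as well (edgeR adjusted p = 0.0133), which made 7 members. DESeq2 (adjusted p = 0.0254) called it too.

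Il27, the p28 chain of IL-27, was at 0.0528, 0.898 and 0.798 FPKM in WT-labelled control BMDCs and at 69.3, 73.0 and 118 with DMXAA. With the CRE label, controls were at 1.96, 0.259 and 1.26 and DMXAA libraries at 107, 19.3 and 82.1. Neither label had overlapping groups. Log2 fold changes were 7.16 ± 0.90 (edgeR adjusted p = 0.000148) and 5.86 ± 0.83 (adjusted p = 0.000432). Apobr, which shares exon bases with Il27, was also higher with DMXAA, at 0.91 ± 0.22 (edgeR adjusted p = 0.00787) in WT-labelled BMDCs, and its part in the Il27 counts was not tested.

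Its partner Ebi3 differed in its starting level. Control BMDCs already held 22.3, 25.8 and 24.2 FPKM with the WT label and 26.8, 20.2 and 28.8 with the CRE label. DMXAA libraries held 109, 55.4 and 64.6, and 60.1, 45.4 and 61.3. Every treated library was above every control, and the log2 fold change was 1.63 ± 0.24 (edgeR adjusted p = 0.000456) and 1.11 ± 0.24 (adjusted p = 0.00559), the smallest of the subunits. With library totals as the scale the values were 1.25 and 0.77, and both were still called. Its opposite-strand neighbour Gm16712 was at 1.69 ± 0.57 (edgeR adjusted p = 0.041) with the WT label, and its part in the Ebi3 counts was not tested.

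Among receptor chains, Il12rb1 rose from 0.302, 0.372 and 0.583 FPKM to 2.84, 4.44 and 4.33 in WT-labelled BMDCs and from 0.536, 0.271 and 0.313 to 4.14, 1.61 and 4.85 in CRE-labelled ones. The log2 fold changes were 3.18 ± 0.46 (edgeR adjusted p = 0.000365) and 3.21 ± 0.46 (adjusted p = 0.000465). Il12rb2, whose counts may mix with Serbp1, went from 1.21, 2.27 and 2.86 FPKM to 10.1, 8.65 and 20.6, and from 2.93, 1.52 and 1.73 to 21.5, 3.64 and 7.82. Its log2 fold changes were 2.61 ± 0.62 (edgeR adjusted p = 0.00757) and 2.39 ± 0.62 (adjusted p = 0.0145), while Serbp1 went the other way in WT-labelled BMDCs at -0.54 ± 0.19 (adjusted p = 0.0435). The CRE-label call for Il12rb2 was lost without DMXAA library 1 (log2 fold change 1.44, adjusted p = 0.0689) or without control library 3 (2.28, adjusted p = 0.058).

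The remaining receptor chains did not pass the test in BMDCs. Il27ra was at 1.43 to 2.34 FPKM in WT-labelled controls and 1.37 to 1.78 with DMXAA, with a log2 fold change of -0.23 ± 0.26 (edgeR adjusted p = 0.56), and at -0.34 ± 0.26 (adjusted p = 0.405) for the CRE label. Il6st was at 3.25 to 5.88 FPKM and 3.22 to 5.47, with log2 fold changes of -0.10 ± 0.33 (edgeR adjusted p = 0.865) and -0.35 ± 0.33 (adjusted p = 0.496). On library totals their log2 fold changes lay between -0.47 and -0.67, and neither was called.

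**Figure D2:**
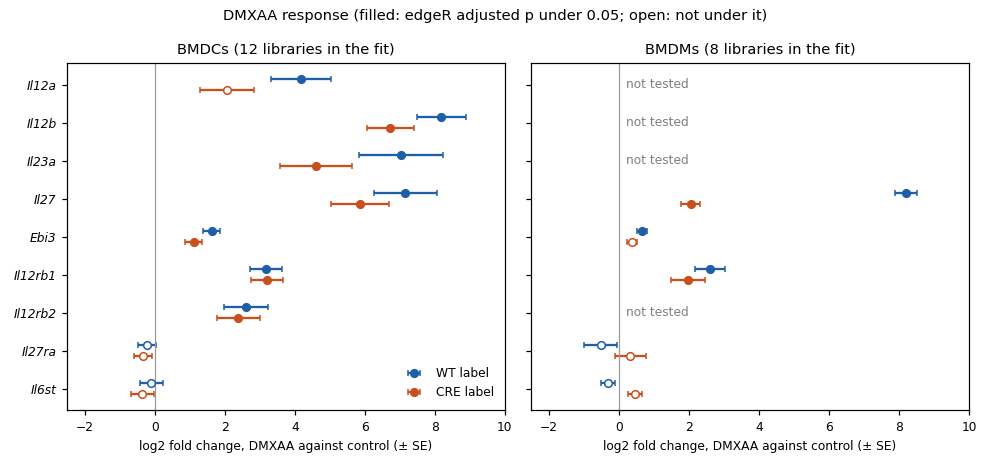
Log2 fold change of each member with DMXAA against control, as points with standard errors, for BMDCs on the left and BMDMs numbered 1 and 2 on the right, with the WT label in blue, the CRE label in orange and filled points for an edgeR adjusted p under 0.05. In BMDCs Il12b has the highest points, at 8.18 and 6.73, and in BMDMs Il27 lies at 8.21 with the WT label and 2.05 with the CRE label.

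The genotype labels were then compared within BMDCs. Under DMXAA, 8 of 9 members had a lower fitted value with the CRE label, and their median log2 difference was -0.31, against 0.01 over all genes. None passed the edgeR test, where 0% of genes did, although 108 genes had an unadjusted p under 0.05, and DESeq2 called no member either. For Il12b the CRE-against-WT log2 difference was -0.83 ± 0.49, for Il12a -0.68 ± 0.69, for Il23a -0.63 ± 0.81, for Ebi3 -0.44 ± 0.24 and for Il27 -0.31 ± 0.64, each with an adjusted p of 1. The libraries of the labels overlapped for every subunit. With standard errors of this size, a p that misses the threshold does not show that the labels had equal levels.

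In untreated BMDCs, again no member was called, where 0% of genes were, with 99 genes at an unadjusted p under 0.05. The log2 differences ran from -0.16 ± 0.45 for Il12rb1 to 1.79 ± 1.41 for Il23a. The interaction of label and DMXAA, which asks whether the response itself differed, called no member and 0% of genes (60 at an unadjusted p under 0.05). DESeq2 called no member in either comparison. The interaction was -2.11 ± 1.15 on the log2 scale for Il12a, -1.45 ± 0.87 for Il12b and -2.42 ± 1.63 for Il23a, each with an adjusted p of 1.

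The CRE-labelled BMDC library number 2 had the lowest DMXAA level of Il12b, Il23a, Il27, Ebi3, Il12rb1 and Il12rb2 among the 6 treated BMDC libraries. For Il12a it was tied at 15 counts with the treated WT library 2 and CRE library 3. The markers of other cells moved with CRE library 2. Its 6 neutrophil markers summed to 271 FPKM and those of the matching control to 510, whereas the other 10 BMDC libraries lay between 18.1 and 41.1. Its 8 macrophage markers summed to 1557, and to 1334 in the control, where the other 10 lay between 4483 and 6303. Its 8 dendritic cell markers summed to 4022, within the range of the other treated libraries, and to 3159 in the control, the lowest of the 12. The medians of the lists ranked the library otherwise. Its dendritic cell median was 56.6 FPKM, below the 95.2 to 152 of the other treated BMDC libraries. Its macrophage median of 45.6 lay within their 45.2 to 74.7. Summed T and NK cell markers stayed at or under 1.02 FPKM and B cell markers at or under 0.702 in all BMDC libraries. What part of the low subunit levels follows from this was not tested, and in bulk RNA fewer cells of a type and less RNA per cell cannot be told apart. Without both libraries numbered 2 of the CRE label, an alternative chosen after the data were seen, 7 members were still called higher with the WT label and 6 with the CRE label. The CRE-against-WT log2 difference under DMXAA was then -0.52 ± 0.40 for Il12b and 0.12 ± 0.40 for Il27, and no member was called.

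**Figure D3:**
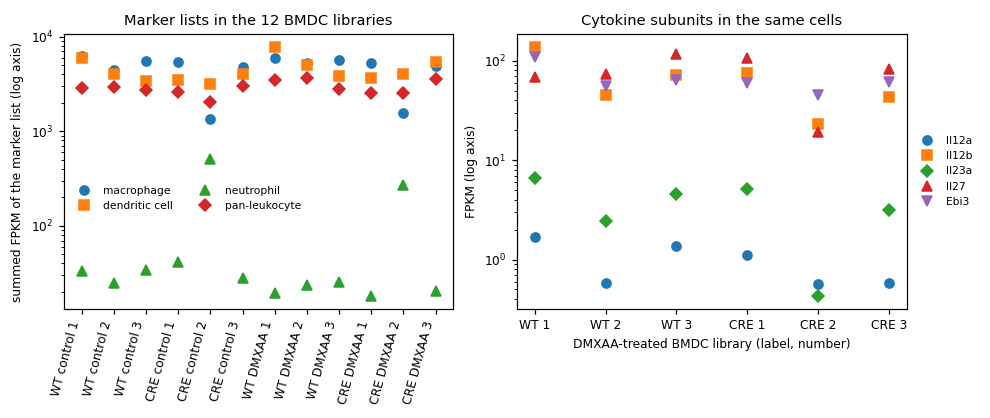
Left, summed FPKM of 4 marker lists in each of the 12 BMDC libraries (log axis). Right, FPKM of the 5 cytokine subunits in the 6 DMXAA-treated BMDC libraries (log axis), where CRE library 2 holds the lowest Il12b, at 22.9, Il23a, at 0.429, and Il27, at 19.3, and has a neutrophil marker sum of 271.

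In BMDMs, DMXAA raised Il27, Il12rb1 and, on the main scale, Ebi3 in WT-labelled cells. Il27 went from under 1 FPKM to 150 and 141 in the libraries numbered 1 and 2. Il12a was not detected, Il23a had at most 2 counts per library, and Il12b reached 28 and 19 counts in the treated WT-labelled libraries. Of the 9 members, 5 passed the filter of 1 FPKM in at least 2 of the 8 libraries and were tested, namely Il27, Ebi3, Il12rb1, Il27ra and Il6st. With the WT label 3 of the 5 were called higher and none lower, where 18.4% of 11569 genes were called higher. The median over those tested was 0.66, against -0.08 for all genes tested. Il27, Il12rb1 and Il27ra met the filter only with the help of DMXAA libraries.

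Il27 was at 0.288 and 0.604 FPKM in WT-labelled control BMDMs and at 150 and 141 with DMXAA. With the CRE label it was at 1.10 and 0.790 and at 4.18 and 3.76. No library of one group fell among those of another. The log2 fold change was 8.21 ± 0.31 (edgeR adjusted p = 1.24e-05) with the WT label and 2.05 ± 0.28 (adjusted p = 0.00624) with the CRE label. The call under the CRE label was lost without control library 1 (adjusted p = 0.0517), without DMXAA library 1 (0.0669) or without control library 2 (0.0928). The difference between the responses was -6.16 ± 0.42 (edgeR adjusted p = 0.00408), the only interaction called among the members, where 3.66% of genes were called. Leaving out any 1 of the 4 CRE-labelled libraries moved it over the threshold, with log2 values of -5.93 to -6.40 and adjusted p of 0.0634 to 0.0801.

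The IL-27 partner chain Ebi3 was again present without stimulation, at 17.9 and 20.4 FPKM in WT-labelled and 17.8 and 15.8 in CRE-labelled control BMDMs. With DMXAA it was at 34.7 and 30.5, and at 22.3 and 22.1. Its log2 fold change was 0.66 ± 0.14 (edgeR adjusted p = 0.0115) with the WT label and 0.38 ± 0.14 (adjusted p = 0.149) with the CRE label. This call rests on the scale. On library totals the WT-label value was 0.14 (adjusted p = 0.39), and the libraries held 23.1 and 26.2 CPM without and 27.5 and 27.2 CPM with DMXAA. Il6st, at 10.4 and 6.76 FPKM without and 8.12 and 6.88 with DMXAA under the WT label, had a log2 fold change of -0.30 ± 0.20 (edgeR adjusted p = 0.286), which library totals turned into a call at -0.82 (adjusted p = 0.013).

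Il12rb1 moved from 0.775 and 0.508 FPKM to 4.59 and 3.83 with the WT label and from 0.0681 and 0.196 to 0.586 and 0.498 with the CRE label. The treated CRE-labelled libraries thus sat at the level of the WT-labelled controls. Log2 fold changes were 2.60 ± 0.43 (edgeR adjusted p = 0.00396) and 1.98 ± 0.48 (adjusted p = 0.048). The last of these was lost without any 1 of the 4 CRE-labelled libraries (adjusted p 0.0558 to 0.252). With it, 2 of the 5 tested members were called higher under the CRE label, where 7.28% of genes were. The median of the 5 was 0.47 there, against -0.01 over all genes tested.

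Under DMXAA, CRE-labelled BMDMs differed from WT-labelled ones in 3 of the 5 tested members, where 19.2% of genes were called, and the median log2 difference was -0.50, against 0.01 over all genes. Il12rb1 met the filter only through the WT-labelled DMXAA libraries and Il27ra only through the CRE-labelled ones. The count and median are therefore not read against those of all genes. Il27 was lower by a log2 difference of -5.14 ± 0.25 (edgeR adjusted p = 0.000531) and Il12rb1 by -2.90 ± 0.44 (adjusted p = 0.00699). Il6st, the gp130 chain, was higher, at 14.5 and 13.0 FPKM against 8.12 and 6.88, a log2 difference of 0.92 ± 0.20 (adjusted p = 0.0235). The Il6st call was lost without any 1 of the 4 treated libraries (adjusted p 0.0561 to 0.162), and the Il12rb1 call without either CRE-labelled one (0.0749 and 0.0835). Ebi3 at -0.50 ± 0.14 (edgeR adjusted p = 0.0516) and Il27ra at 1.58 ± 0.47 (adjusted p = 0.0617) missed the threshold, and Il27ra was called on library totals at 1.8 (adjusted p = 0.0367).

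These BMDM tests lean on an unequal spread. The biological coefficient of variation was 35.1% over the 4 WT-labelled libraries and 5.19% over the 4 CRE-labelled ones, so the pooled 24.5% understates the former. With the WT-labelled spread alone, an alternative chosen after the data were seen, no member was called between the labels under DMXAA, and Il27 had an adjusted p of 0.0677 at the same log2 difference of -5.14. With the libraries numbered 3 included, Il27 was at -5.20 and no member was called in any BMDM comparison.

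Before stimulation, no member differed between the labels of BMDMs in the edgeR test, where 0.0432% of genes did and 793 had an unadjusted p under 0.05. Il12rb1 had a log2 difference of -2.28 ± 0.47 (edgeR adjusted p = 0.39), which DESeq2 called. Il27 was at 1.02 ± 0.35 (edgeR adjusted p = 0.714).

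The members below the BMDM filter are given as counts. Il12b had 28 and 19 counts in the DMXAA libraries of the WT label and 0 in both controls, which makes it at least 8.39-fold higher in CPM, taking 3 counts per control library as the floor. With the CRE label it had 1 and 2 counts with DMXAA and 0 and 1 without. Without the filter on low values, Il12b and Il12rb2 were also called higher with DMXAA in WT-labelled BMDMs. Il23a had at most 2 counts in any BMDM library. Il12a had 0 counts in all 12, which allows up to 3 counts, and the transcript was not detectable at this depth. Il12rb2 was at 0.594 and 0.175 FPKM in WT-labelled controls and 2.87 and 0.894 with DMXAA, groups that did not overlap, and at 0.359 to 0.682 in the CRE-labelled libraries.

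BMDCs and BMDMs were next compared with the WT label. Under DMXAA, 6 of 9 members were higher in BMDCs and none lower, where 30.6% of 13368 genes were called in either direction. Those were Il12a, Il12b, Il23a, Ebi3, Il12rb2 and Il27ra. The first 3 of them and Il12rb2 did not meet the BMDM filter and entered the joint test through the BMDC libraries, where they are high. The median log2 difference was 2.05 over the 9 and 0.04 over all genes. Because of that entry, neither the count nor the median is read against all genes. For Il12b the difference was 6.53 ± 0.71 (edgeR adjusted p = 1.15e-05), from 1.26 and 0.669 FPKM in BMDMs to 138, 44.8 and 72.3 in BMDCs. Il12a was at least 10.1-fold higher, taking 3 counts per BMDM library as its floor. Il23a had 453 counts over 3 BMDC libraries and 2 over 2 BMDM libraries, a CPM ratio of 152 (95% exact interval 41.7 to 1256). Ebi3 was higher by 1.27 ± 0.25 (edgeR adjusted p = 0.00113), Il27ra by 2.05 ± 0.38 (adjusted p = 0.000828) and Il12rb2 by 2.87 ± 0.75 (adjusted p = 0.009). The Il12rb2 call was lost without BMDM DMXAA library 2 (2.25, adjusted p = 0.0947).

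Il27 did not follow that order. Its BMDM values of 150 and 141 FPKM were above the BMDC values of 69.3, 73.0 and 118, yet the difference of -0.69 ± 0.60 on the log2 scale (edgeR adjusted p = 0.419) did not pass the test. Il12rb1 was nearly level at -0.07 ± 0.44 (edgeR adjusted p = 0.936), and Il6st was at -0.69 ± 0.32 (adjusted p = 0.119).

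In controls, 4 members differed between the cell types, where 28.5% of genes did, and the members' median was 0.41, against -0.02 over all genes. Il12b and Il12rb2 again entered through the BMDC libraries, as did Il12a and Il23a, so this count and median are not read against those of all genes. Il27ra was higher in BMDCs by 1.75 ± 0.36 (edgeR adjusted p = 0.00191) and Il12rb2 by 2.40 ± 0.78 (adjusted p = 0.0295). Il12b, with 32 counts against 0, was at least 3.81-fold higher (3 counts per BMDM library as the floor). Il6st was lower in BMDCs by -0.92 ± 0.32 (edgeR adjusted p = 0.0411), at 3.25, 5.03 and 5.88 FPKM against 10.4 and 6.76. The last call was lost under 7 alternatives, library totals (adjusted p = 0.0705) among them. Leaving out 1 library also ended the Il12rb2 call (without BMDM control 2, adjusted p = 0.199, or BMDC control 2 or 3, 0.0534 and 0.0716) and the Il12b call (without BMDM control 1 or 2, 0.111 and 0.106, or BMDC control 3, 0.0562). The test of whether the DMXAA response differed between cell types called none of the 9, where 2.61% of genes passed and 1817 stood at p under 0.05 before adjustment, and DESeq2 gave no member either. No estimate could be had for Il12a, whose BMDM counts were all 0.

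By group mean, the order of levels in WT-labelled BMDCs under DMXAA was Il27 (86.7 ± 27.0 FPKM, SD, n = 3), Il12b (85.0 ± 47.8), Ebi3 (76.2 ± 28.4), Il12rb2 (13.1 ± 6.51), Il23a (4.56 ± 2.08), Il6st (4.50 ± 1.16), Il12rb1 (3.87 ± 0.894), Il27ra (1.59 ± 0.208) and Il12a (1.21 ± 0.568). The first 3 did not differ beyond their spread, nor did Il23a, Il6st and Il12rb1, nor the last 2. In WT-labelled BMDMs under DMXAA the order was Il27 (145 ± 6.39, n = 2), Ebi3 (32.6 ± 2.96), Il6st (7.50 ± 0.877), Il12rb1 (4.21 ± 0.538), Il12rb2 (1.88 ± 1.40), Il12b (0.964 ± 0.417), Il27ra (0.392 ± 0.0895), Il23a (0.0308 ± 0.0436) and Il12a (0). There Il12rb2 and Il12b did not differ beyond their spread, nor did Il23a and Il12a.

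Subunits that form 1 cytokine were then set against each other within each library, as the log2 ratio of FPKM with 0.1 added to each value. In an exact two-sided permutation test within genotype label, all 4 ratios changed with DMXAA in BMDCs. For Il12b to Il23a and Ebi3 to Il12a this depended on the value added, as given below. The ratio of Il12b to Il12a, the chains of IL-12, was 81.9, 77.4 and 53.0 in FPKM in WT-labelled and 68.3, 40.4 and 74.1 in CRE-labelled DMXAA libraries. Il12b transcript was thus in excess of its partner in all 6. On the log2 scale this ratio was 5.84 ± 0.41 (SD, n = 6) with DMXAA and 1.12 ± 1.04 in controls, a difference of 4.71 (exact permutation p = 0.005, the smallest that 400 arrangements allow, adjusted over 8 tests 0.0133). The control ratio rests on at most 8 counts of Il12a per library.

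For IL-23, the ratio of Il12b to Il23a was 20.8, 18.3 and 15.7 in WT-labelled and 14.6, 53.4 and 13.7 in CRE-labelled DMXAA BMDCs. The outlying 53.4 belongs to library 2, where Il23a had the least. The log2 ratio was 4.24 ± 0.63 with DMXAA and 1.46 ± 0.82 in controls, a difference of 2.79 (exact permutation p = 0.005, adjusted 0.0133). With a pseudocount of 0.01 the difference was 1.39 and no longer passed (adjusted p = 0.213).

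For IL-27 the gap between the chains closed. Control BMDCs held 13.7 to 422 times as much Ebi3 as Il27, while with DMXAA the ratio was 1.57, 0.759 and 0.548 under the WT label and 0.563, 2.35 and 0.747 under the CRE label. Both chains were therefore near parity in all 6 treated libraries. The log2 ratio fell from 5.10 ± 1.23 to -0.11 ± 0.85, a difference of -5.20 (exact permutation p = 0.005, adjusted 0.0133). In treated BMDMs the ratio was 0.232 and 0.217 with the WT label, an excess of Il27, and 5.33 and 5.88 with the CRE label, an excess of Ebi3. As the labels lie on opposite sides, the mean over BMDMs did not differ from that of BMDCs (difference -0.26, exact permutation p = 0.83, adjusted 0.83).

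For IL-35, Ebi3 stood above Il12a by 47.3 to 106 times in treated BMDCs. The log2 ratio was 6.0 ± 0.40 with DMXAA and 6.98 ± 0.65 in controls, a difference of -0.98 (exact permutation p = 0.015, adjusted 0.0171), which turned to 0.54 with a pseudocount of 1. Its direction therefore depends on the pseudocount. Between treated BMDCs and BMDMs, the ratios to Il12a and Il23a rest on BMDM libraries at or near 0 for the denominator, so the log2 differences of 3.89 for Il12b to Il12a, 2.47 for Il12b to Il23a and -2.08 for Ebi3 to Il12a are set by the 0.1 that was added (each exact permutation p = 0.01, the smallest of 100 arrangements, adjusted 0.0133).

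**Figure D4:**
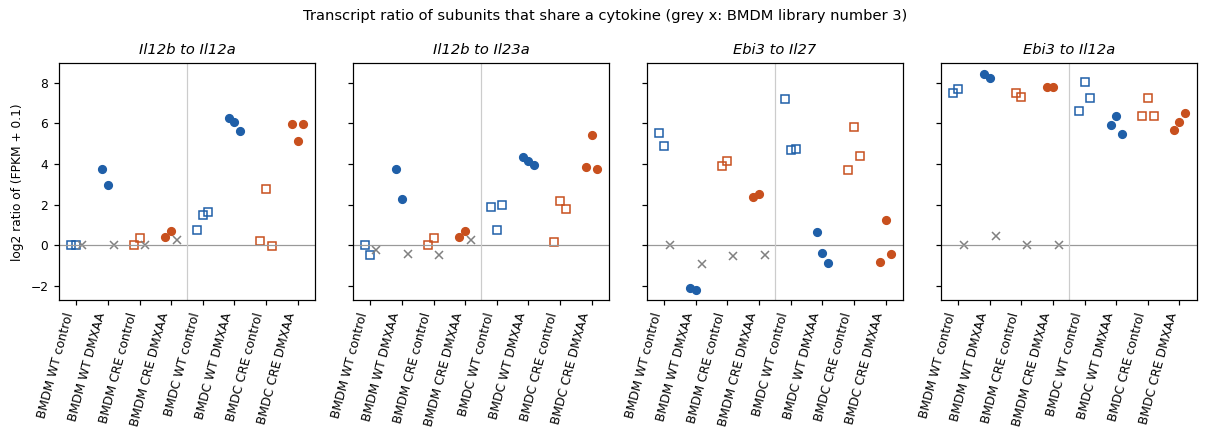
Log2 ratio of FPKM, each with 0.1 added, for 4 pairs of subunits that share a cytokine, in every library, with open squares for control, filled circles for DMXAA and grey crosses for the BMDM libraries numbered 3. Ebi3 to Il27 in BMDCs falls from 5.10 to -0.11 on average, and the CRE- and WT-labelled treated BMDMs lie on opposite sides of 0. A ratio of 0 in BMDMs can stand for both chains at 0.

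The genes around the family were described from 3 lists. Of 9 signal transducers below the IL-12 family receptors, including the IL-23-specific receptor chain Il23r, 6 rose and none fell in WT-labelled BMDCs, 5 rose in CRE-labelled BMDCs, and of the 7 tested in BMDMs 6 rose with the WT label and 5 with the CRE label. Their median log2 fold change was 1.10, 1.12, 2.54 and 0.84 in that order. Over all genes tested, the shares called higher were 17.0%, 14.0%, 18.4% and 7.28% in the same order. Il23r was at 2.80 ± 0.69 (edgeR adjusted p = 0.00937) in WT-labelled BMDCs, from 0.216 ± 0.119 to 1.56 ± 0.796 FPKM. Socs1, a feedback inhibitor of JAK-STAT signalling, rose by 1.10 ± 0.22 (edgeR adjusted p = 0.00255) and Tyk2, the kinase bound to Il12rb1, by 1.05 ± 0.33 (adjusted p = 0.0291). Under DMXAA, 5 of the 7 tested were lower in CRE- than in WT-labelled BMDMs, where 9.99% of all genes were called lower.

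Of 12 transcription factors known to act on subunit genes, 8 rose and 1 fell in WT-labelled BMDCs, and 8 rose and none fell in CRE-labelled ones. Among the 11 tested in BMDMs, 6 rose and 1 fell with the WT label, and 1 rose with the CRE label. The shares of all genes called higher were 17.0% and 14.0% in BMDCs and 18.4% and 7.28% in BMDMs, and 1 of 11 is near the last of these. Irf1, an interferon-induced factor, was at 4.37 ± 0.30 (edgeR adjusted p = 1.74e-06) in WT-labelled BMDCs. Irf8, a factor of dendritic cell and macrophage development, rose there from 6.26 ± 0.513 to 38.1 ± 17.6 FPKM, a log2 fold change of 2.57 ± 0.42 (edgeR adjusted p = 0.000829). In WT-labelled BMDMs it was at 22.5 ± 12.9 FPKM without and 24.6 ± 5.03 with DMXAA, a change of 0.02 ± 0.36 (adjusted p = 0.969). The responses of the cell types differed by 2.58 ± 0.62 (adjusted p = 0.0381). Irf8 was lower in BMDCs than in BMDMs in controls, at -1.90 ± 0.43 (edgeR adjusted p = 0.00342). Under DMXAA the cell types did not pass the test, at 0.68 ± 0.44 (adjusted p = 0.267). Irf3, the factor that STING signalling activates at the protein level, fell by 0.59 on the log2 scale in transcript (edgeR adjusted p = 0.00958), and Cebpb rose by 0.65 ± 0.19 (adjusted p = 0.0193).

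Of 9 other gp130 cytokines and receptors, 6 were tested in BMDCs. Of these, 3 rose and 2 fell under each label, where 17.0% of all genes rose and 15.2% fell with the WT label and 14.0% rose and 11.4% fell with the CRE label. Il6 rose from 11 ± 0.618 to 141 ± 17.9 FPKM in WT-labelled BMDCs, a log2 fold change of 3.65 ± 0.25 (edgeR adjusted p = 1.52e-06), and Lif by 2.37 ± 0.52 (adjusted p = 0.00469). Their receptor chains fell, Lifr by a log2 fold change of -2.44 ± 0.56 (edgeR adjusted p = 0.00605) and Il6ra by -1.43 ± 0.33 (adjusted p = 0.00625). In BMDMs 1 of 6 tested rose with the WT label, a share near the 18.4% of all genes, and none with the CRE label, where 7.28% of all genes rose.

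Over the 12 BMDC libraries, the genes whose log2(FPKM + 1) was most like each subunit's were listed among the 12126 tested. The points share control and treated libraries, so r mostly follows the DMXAA contrast and is given without a p. For Il12b they were Gm49212 and AW011738 (Pearson r = 0.997 each) and Acsl1 (0.996), for Il27 A530040E14Rik, Mov10 and Vcam1 (0.994 each), and for Il23a Hspa1a (0.984), Gucd1 (0.983) and Vipr2 (0.981). For Ebi3 they were AC125149.1 and St14 (0.979 each) and Gm48226 (0.975), and for Il12a Tnfrsf13b (0.977), Ctif (0.973) and Irf4 (0.972).

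The 4 BMDM libraries numbered 3, which carried fibroblast markers, had Il27 at 0 to 0.161 FPKM, Ebi3 at 0 to 0.0357, Il27ra at 0 to 0.0585 and Il12rb2 at 0 in every one. Il6st was higher with the WT label, at 40.3 without and 55.9 with DMXAA, than in any other library, and at 14.4 and 16.8 with the CRE label. Il12rb1 stayed at 0.411 to 1.01 FPKM. As each group holds 1 such library, no test was made.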

How the data were processed

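PolyA RNA of 24 libraries was sequenced by the study. The authors deposited 1 gene table with raw read counts and FPKM per library. The submitters' processing notes name fastp, HISAT2 2.0.5, featureCounts 1.5.0-p3, DESeq2 1.20.0 and GRCm38, with no strand setting. All 48 per-sample columns were mapped to labels. The table also holds the authors' own group means, log2 fold changes, p-values and adjusted p-values for their comparisons, which were not used.

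Groups were taken from the sample labels. Genes with FPKM of at least 1 in at least 3 BMDC libraries, or in at least 2 BMDM libraries numbered 1 and 2, were tested on the deposited counts with edgeR 4.0.16 (TMM, quasi-likelihood, R 4.3.3), separately for BMDCs and BMDMs and jointly for the cell types. Benjamini-Hochberg adjustment ran over all genes tested, with a threshold of 0.05. DESeq2 1.42.0 was an alternative. The edgeR steps were tested on simulated data. FPKM ratios, with 0.1 added, were compared by exact two-sided permutation within label. Exact 95% intervals and floors of 3 counts cover counting error only. Gene counts summed to 15657347 to 18912887 per library.

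Same-numbered control and DMXAA BMDC libraries of a label deviated together from their group means (r 0.39 to 0.68 in 6 pairs) and were treated as paired within label in an alternative fit. Across labels r was -0.50 to 0.04. In BMDMs, with 2 numbers, r was 0.66 with the WT label and 0.03 with the CRE label. BMDM libraries too were treated as paired within label only in an alternative fit.

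All 9 members are named. From each pathway list, the genes named are those called in WT-labelled BMDCs with the 2 largest and 2 smallest log2 fold changes, and for each subunit the 3 genes with the highest r over the BMDC libraries. One gene that this rule names is not reported here. The members, gene lists and the separation of BMDM number 3 were chosen with earlier results of these data known. Promoter windows came from RefSeq, and 3 of 5 subunit genes had one. Marker lists covered macrophages, dendritic cells, fibroblasts, neutrophils, T and NK cells, B cells and leukocytes in general.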

Additional observations from a re-analysis of the deposited data

Results flagged for a closer look

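One result stood out because 2 groups responded differently under the same contrast. The DMXAA response of Il27 in BMDMs differed between the CRE and the WT label by -6.16 on the log2 scale (edgeR adjusted p = 0.00408), with 8.21 in WT-labelled and 2.05 in CRE-labelled cells. Each response rests on 2 libraries per group, and the difference did not pass when the spread was taken from WT-labelled BMDMs only (adjusted p = 0.288). With any 1 CRE-labelled library left out, the adjusted p was 0.0634 to 0.0801.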

How the results depend on the processing

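Counts of members called stayed within 1.5 times the main count in 162 of 197 recomputations. In WT-labelled BMDCs 7 members were called, and 4 with a minimum of 5 FPKM. That minimum left Il12a, Il23a and Il12rb1 untested in BMDCs and Il12rb1 untested in BMDMs. In WT-labelled BMDMs 3 became 5 without the filter and 0 with all 12 libraries. In CRE-labelled BMDMs 2 became 1 with a minimum of 5 FPKM, 1 with a replicate block, 1 on library totals, 4 with only the groups compared, 0 with all 12 libraries and 0 with the WT-labelled spread. Between the labels of treated BMDMs 3 became 6 without the filter, and 0 with all 12 libraries or with the WT-labelled spread. In control BMDMs 0 became 2 under the study's fold-change rule, 1 without the filter and 1 with DESeq2. The BMDM interaction went from 1 to 2 with the replicate block within label and to 0 with all 12 libraries or with the WT-labelled spread. Between control BMDCs and BMDMs 4 became 1 with all 24 libraries, and the cell-type interaction went from 0 to 1 without the filter. Leaving out 1 library gave 7 to 7 (BMDC, WT label), 5 to 6 (BMDC, CRE label), 3 to 4 (BMDM, WT label), 0 to 1 (BMDM, CRE label), 1 to 2 (BMDM labels, DMXAA), 0 to 2 (BMDM interaction), 2 to 3 (cell types, control), 5 to 6 (cell types, DMXAA) and 0 to 0 elsewhere. Single-gene results kept direction and call in 365 of 423, lost the call in 57, and Il6st between treated BMDM labels reversed to -0.68 with all 12 libraries. With a pseudocount of 0.01, Il12b to Il12a between cell types was 1.49 (exact permutation, adjusted p = 0.176), Il12b to Il23a 1.39 with DMXAA (0.213) and 0.53 between cell types (0.709). Ebi3 to Il12a reversed to 0.54 with DMXAA and 0.26 between cell types with a pseudocount of 1, and to 0.54 with all 12 DMXAA libraries. Leaving out 1 library gave 4.47 to 5.16 and 3.68 to 4.09 for Il12b to Il12a, 2.48 to 2.99 and 2.09 to 2.85 for Il12b to Il23a, -5.51 to -4.79 and -0.57 to -0.05 for Ebi3 to Il27, and -1.15 to -0.80 and -2.19 to -1.97 for Ebi3 to Il12a. The spread of the WT-labelled libraries, library totals and the removal of both CRE-labelled BMDC libraries numbered 2 were chosen after seeing the data. On library totals, calls that were higher between treated BMDM labels made up 70.9%, against 48.1%. The cause of these changes was not tested.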
